A study of Mus musculus with 2 samples.

Results

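The regions described here are 37 clusters of closely spaced EP300 peaks in the liver of mouse embryos. They were chosen by the positions of peak summits in the authors' optimal list of reproducible peaks. Neighbouring summits on the same chromosome were joined when they lay within a fixed distance given with the processing steps, and clusters of 10 or more peaks were kept. The longest gap so joined was 12374 bp, and the nearest summit left outside was 12616 bp away. They hold 505 of the 17043 optimal peaks on assembled chromosomes, or 2.96%. Joined in the same way, the other peaks gave 6163 single peaks, 7850 peaks in clusters of 2 to 4 and 2525 peaks in clusters of 5 to 9. The data come from 2 chromatin immunoprecipitation (ChIP-seq) libraries of liver from embryos of strain B6NCrl at 14.5 days, sexes mixed, with tissue of several dissections ground and pooled. Both libraries belong to the same group and carry the same biosample label, so nothing in the labels separates animals, and no treatment, genotype or second tissue is compared. The files give no read totals, so the depth behind the values is unknown, and no test was run, because peaks of 1 cluster share a locus and are not independent.

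EP300 is an acetyltransferase that adds acetyl groups to histones and works as a coactivator at enhancers and promoters. It does not recognise a DNA sequence of its own and is brought to chromatin by transcription factors. In erythroid cells these include GATA1, which binds the GATA word and often sits beside TAL1, which binds an E-box with its partners. The fetal liver makes most red blood cells of the embryo, and erythroid precursors are there mixed with hepatocytes, macrophages, endothelial and stromal cells. In bulk tissue, fewer cells of a type and less EP300 per cell cannot be told apart.

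Each cluster is called by the protein-coding gene whose transcription start site (TSS) is nearest to the summit of its strongest peak, and the name makes no statement on which gene a peak acts on. Signal is the authors' value for the height of a peak in the optimal list, and is used here only to rank and describe peaks of that list. A promoter peak has its summit within 1 kb of an annotated TSS, and any other peak is called distal. A GATA word is AGATAA, or the same word with T as its first letter, G as its last letter or both, on either strand within 100 bp of the summit. An E-box and GATA composite is CTG, a spacer of 7 to 9 bases and a GATA word on the same strand.

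The sequences that follow lie around the summits of the strongest peaks, on the plus strand of GRCm38 (mm10) as given by RefSeq, and capitals mark GATA words and the word CCAAT on either strand. The first 5 were chosen because they belong to the clusters with the highest single peaks, and 1 to 3 GATA words lie in each window shown. Picalm is given over 100 bases on either side of the summit, since its only GATA word is over 50 bp away, and the others over 50.
Gfi1b (chr2:28602306-28602406): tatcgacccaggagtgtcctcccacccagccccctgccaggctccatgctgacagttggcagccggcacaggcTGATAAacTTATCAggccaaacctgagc
Nprl3 (chr11:32245759-32245859): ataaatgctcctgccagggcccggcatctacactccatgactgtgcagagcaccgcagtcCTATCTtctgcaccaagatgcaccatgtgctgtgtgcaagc
Picalm (chr7:90062936-90063136): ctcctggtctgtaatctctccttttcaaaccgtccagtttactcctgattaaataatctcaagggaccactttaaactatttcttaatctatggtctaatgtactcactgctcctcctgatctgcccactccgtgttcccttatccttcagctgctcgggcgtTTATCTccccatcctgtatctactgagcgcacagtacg
Zfpm1 (chr8:122309474-122309574): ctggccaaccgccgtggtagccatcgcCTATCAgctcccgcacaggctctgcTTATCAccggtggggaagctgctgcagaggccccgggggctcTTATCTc
Tmcc2 (chr1:132367940-132368040): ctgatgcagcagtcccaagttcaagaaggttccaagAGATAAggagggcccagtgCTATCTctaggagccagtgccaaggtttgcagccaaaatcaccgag
The next 3 belong to the clusters with the largest share of promoter peaks. In these windows neither histone gene nor Rnf43 has a capital, so no GATA word or CCAAT was in the 50 bases on either side. The Rnf43 peak, which is intronic, does have 1 GATA word farther out, within 100 bp of its summit.
Hist1h4f (chr13:23551667-23551767): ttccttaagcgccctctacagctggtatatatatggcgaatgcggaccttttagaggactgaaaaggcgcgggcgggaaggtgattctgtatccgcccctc
Hist1h4b (chr13:23756912-23757012): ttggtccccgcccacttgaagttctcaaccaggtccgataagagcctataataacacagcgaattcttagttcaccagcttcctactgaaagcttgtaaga
Rnf43 (chr11:87726334-87726434): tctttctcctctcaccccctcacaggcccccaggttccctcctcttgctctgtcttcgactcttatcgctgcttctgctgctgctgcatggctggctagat
The last 2, added after their values were seen, are the strongest peaks at the gene of the anion exchanger Slc4a1 and at the adult beta-globin genes.
Slc4a1 (chr11:102363758-102363858): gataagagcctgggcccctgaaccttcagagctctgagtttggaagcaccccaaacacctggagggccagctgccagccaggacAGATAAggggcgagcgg
Hbb-bt (chr7:103809111-103809211): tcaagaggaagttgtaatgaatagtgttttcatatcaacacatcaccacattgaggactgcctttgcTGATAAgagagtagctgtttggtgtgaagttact

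The clusters were compact and spread over 15 chromosomes. Their spans, from first to last summit, ran from 15.1 to 116.1 kb with a median of 37.0 kb, and added up to 1560.4 kb, which is 0.0592% of the assembled chromosomes. Chromosome 11 held 5 clusters with 82 peaks, chromosome 5 held 5 with 55, chromosome 13 held 4 with 71 and chromosome 6 held 4 with 59. The members took 3.8% of the summed signal of all optimal peaks. Just inside the threshold, 11 clusters had exactly 10 peaks, with a median span of 35.7 kb, a median strongest signal of 303.3 and a median summed signal of 850.4. Just outside it, 22 clusters had 9 peaks, with medians of 28.0 kb, 293.8 and 789.9. Those 22 include clusters at Foxo3, a transcription factor of red cell maturation, at Ank1, the membrane skeleton protein ankyrin, and at Gypc, a glycophorin. The clusters on either side were thus close in strength.

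Which loci reached 10 joined peaks depended on the list. Among as many top peaks of a single library, 20 of the 37 clusters met a cluster of 10 or more in each library. Nprl3, Gfi1b, Pik3cg, Spata5, Sppl3 and Hectd4 did not without replicate 2, although 16 summits still lay in the span of Nprl3 and 10 in that of Gfi1b. Btn1a1, Usp7 and Kcnn4 did not without replicate 1, nor did Cyth3. Nr2e1, Cpeb4, Msmb, Arhgap19 and Klf3 met one in neither library. In 5 alternative lists, 17 clusters met one in all, among them Slc4a1, Zfpm1, Tbxas1, Aqp1, Picalm, Hbb-bt and the histone clusters, and 3 in none, Cpeb4 and Nr2e1 among them.

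**Figure D1:**
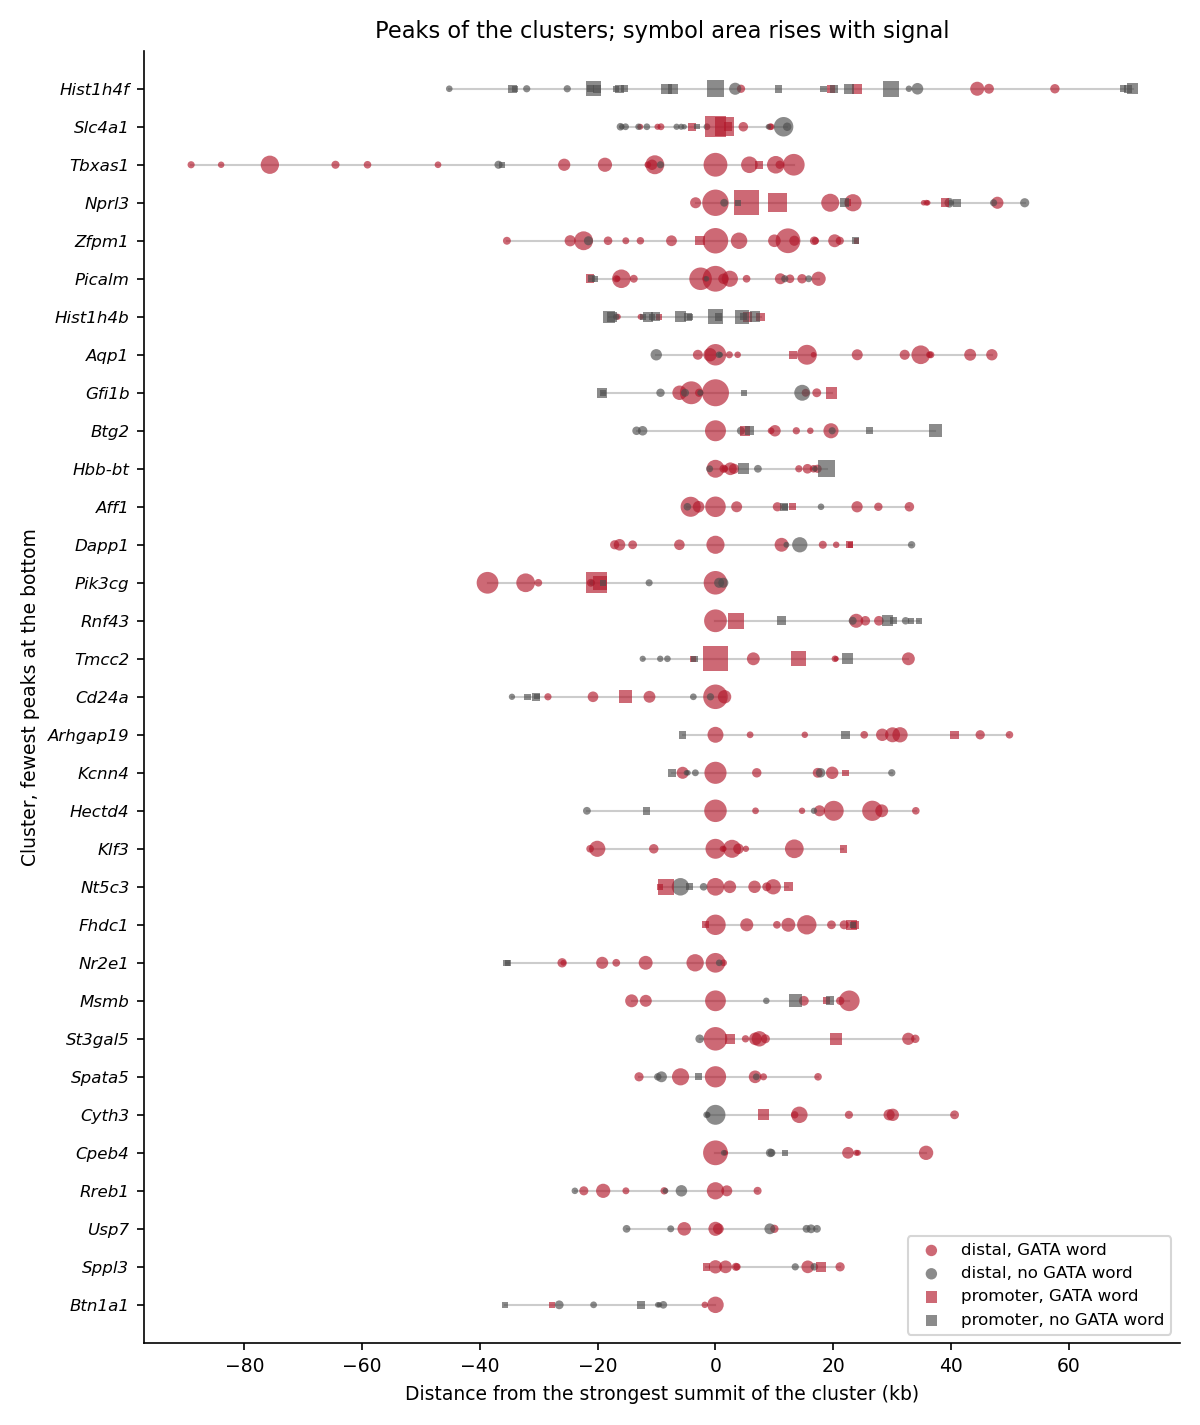
Every peak of 33 clusters by its distance from the strongest summit of its cluster (kb), 1 cluster per row, with the clusters of fewest peaks at the bottom. Symbol area rises with signal, red marks peaks with a GATA word, grey those without, squares promoters and circles distal peaks; the strongest peak is distal in 29 of these clusters, and the 2 histone rows are mostly grey squares.

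Both globin loci formed a cluster in the optimal list, that of alpha-globin not without replicate 2. The Nprl3 cluster (chr11:32242432-32298326) covers the alpha-globin locus with 20 peaks over 55.9 kb, and the TSSs of Hba-x, the embryonic alpha-like globin gene, of Hba-a1 and Hba-a2, the adult ones, and of Hbq1b lie inside it. Its signal sat at the far side from the adult genes, in and beside Nprl3, a subunit of the GATOR1 complex whose introns are known to hold enhancers of alpha-globin. From its first summit, the strong peaks came at 3377 bp with a signal of 544.1, at 8661 bp with 503.0, at 13877 bp with 280.0, at 22869 bp with 245.3 and at 26729 bp with 221.7. All 5 had a GATA word, 2 had a composite, and the first ranked 2 in replicate 1 and 6 in replicate 2. Those of 503.0 and 280.0 were promoter peaks by the definition used here, 815 and 104 bp from annotated TSSs of Nprl3. Another promoter peak, 6 bp from a TSS of Nprl3, had 41.9. The 10 peaks beyond 38 kb, among the adult genes, had signals of 6.4 to 101.2, and the highest of these lay 2800 bp from the TSS of Hba-a2. The only promoter peaks at the adult genes and Hbq1b were one of 43.3 at 986 bp from Hba-a1 and one of 33.7 at 102 bp from Hbq1b. Hba-a1 and Hba-a2 are near copies, so how reads were divided between them is uncertain.

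The Hbb-bt cluster (chr7:103808168-103828019) held 14 peaks in 19.9 kb around Hbb-bt and Hbb-bs, the adult beta-globin genes. Its strongest peak was distal, with a signal of 241.3 at 4835 bp from the TSS of Hbb-bt, a GATA word and a composite, and it ranked 771 and 1044 in the libraries. The second was the promoter of Hbb-bs, 77 bp from the TSS, at 221.4. The promoter peak of Hbb-bt, 39 bp from its TSS, reached 74.7. Neither promoter peak had a GATA word, whereas 9 of the 14 peaks had one. Hbb-bs and Hbb-bt are also close copies, and the same doubt applies to their values. The Hbb-bh1 and Hbb-y genes lay outside, since the next summit was 26832 bp away.

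Clusters also lay at 2 genes of erythroid transcription factors. The Zfpm1 cluster (chr8:122274099-122333471) held 20 peaks over 59.4 kb, 19 of them inside Zfpm1, which encodes FOG-1, the cofactor of GATA1. GATA words were in 18 of them and composites in 7, the highest count of composites among the 37 clusters. The strongest peak, 2204 bp from a TSS of Zfpm1, had a signal of 505.5 and 5 GATA words within 100 bp of the summit, and ranked 21 and 9 in the libraries. The second, 12320 bp away, had 476.2, and the third had 269.9. Its strongest promoter peak reached 50.4. The annotation also has an overlapping gene model, Gm20388, over the whole cluster.

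The Gfi1b cluster (chr2:28583045-28622063) contained the peak that was the strongest of all optimal peaks and of each library alone. Gfi1b is a zinc finger repressor needed for red cells and platelets. The 570.3 peak lay 13049 bp from the nearest coding TSS, downstream of the gene, and the second, with 404.4, lay 4101 bp from it. Within the gene the highest peak was 187.7, in an intron 1685 bp from a TSS, and the promoter peak had 91.7. The 14 peaks over 39.0 kb also reach the promoter of Gtf3c5, a subunit of the polymerase III factor TFIIIC, where the peak was 55.5.

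The cluster called Klf3 (chr5:64566839-64609853) is the only one in which every peak had a GATA word, in 11 of 11. It is also the farthest from a coding TSS: its strongest peak, with 303.2, was 215258 bp from that of Klf3, a repressor that binds CACCC boxes. The next in strength had 264.8 and 245.9, and the lncRNA gene Gm3716 is the only annotated gene with a TSS inside.

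Among genes of the red cell membrane, Slc4a1 had the densest cluster. It encodes band 3, the anion exchanger that anchors the membrane skeleton. The cluster (chr11:102347671-102375985) has 23 peaks in 28.3 kb, with gaps of at most 4258 bp, yet 3 peaks held 68.8% of its signal. The strongest, 331.6, was 104 bp from a TSS of Slc4a1 with 2 GATA words and a composite, and another promoter peak 11 bp from a TSS had 274.8. Between them in rank stood a peak of 289.7 at 1643 bp from the lncRNA gene Bloodlinc, with no GATA word. The 20 other peaks had signals of 5.5 to 55.6. Only 12 of the 23 had a summit in both libraries, and 5 lay within 500 bp of a stronger summit.

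Aqp1, the water channel of the red cell, had an open arrangement (chr6:55314062-55371059) with 18 peaks over 57.0 kb, of which 15 had a GATA word. Strong peaks stood 12312 bp upstream of its TSS (354.1), in its intron (301.2) and beyond the gene (264.3), while its only promoter peak had 27.6. Kcnn4, the calcium-activated potassium channel, had 12 peaks over 37.3 kb (chr7:24369854-24407174). One intronic peak with a signal of 377.0 held 43.6% of the sum, and the peak at its promoter had 34.0. The Cd24a cluster (chr10:43575147-43611253) lies at the gene of a surface antigen of immature blood cells. Its strongest peak, with 468.2, was 29777 bp from the TSS of Cd24a, in an intron of a non-coding transcript, whereas the 3 promoter peaks of Cd24a had 5.6 to 32.6. A further 9-peak cluster also nearest to Cd24a, at chr10:43646511-43676512, fell below the threshold, with a strongest signal of 59.1.

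**Figure D2:**
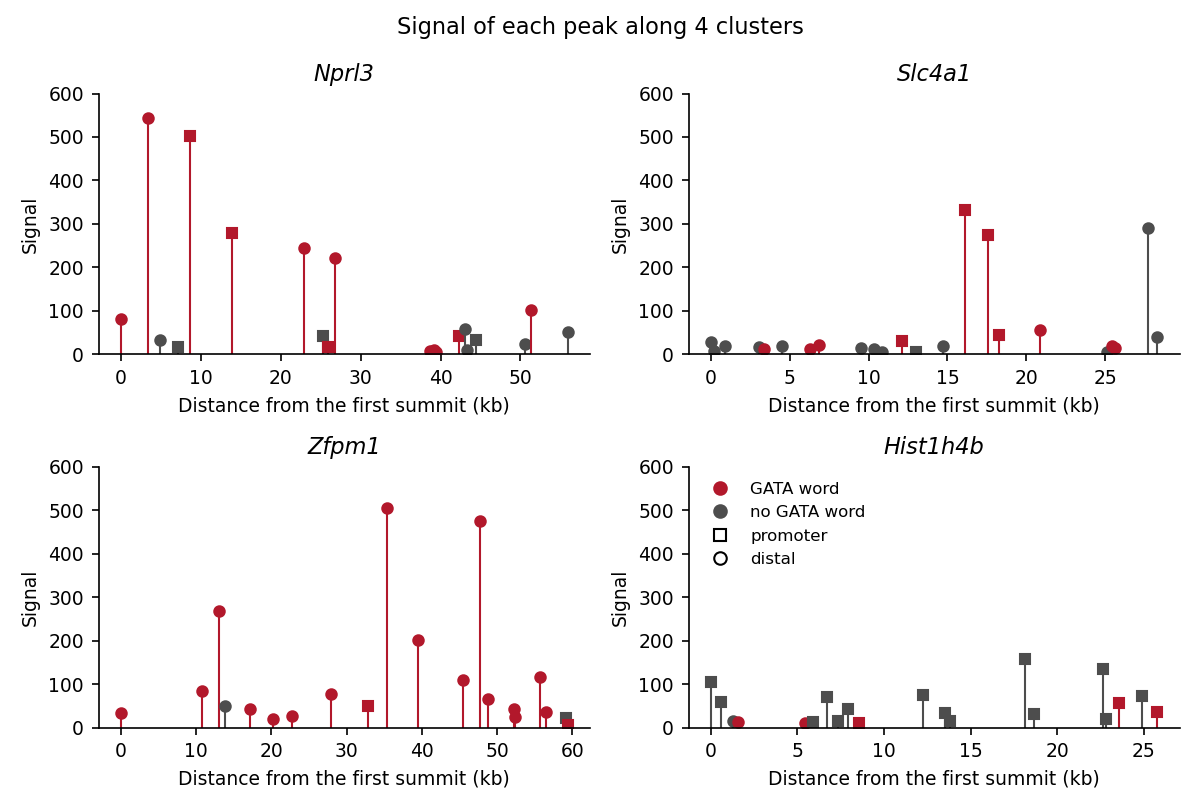
Signal of each peak (vertical axis, linear) by distance from the first summit (kb) in 4 clusters, with red for a GATA word, grey for none, squares for promoters and circles for distal peaks. A few tall red peaks stand over many low ones at Nprl3, Slc4a1 and Zfpm1, with 1 tall grey peak at Slc4a1, while Hist1h4b has mostly grey promoter peaks of at most 158.7.

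Nt5c3, a nucleotidase that clears pyrimidine nucleotides from maturing red cells, contained all 11 peaks of its cluster (chr6:56901728-56923461). The median of 107.9 there was the highest of the 37 clusters, and the strongest peak, 235.3, was nearly level with the second, 229.7, which had no GATA word. St3gal5, which makes the ganglioside GM3, also enclosed its 10 peaks (chr6:72099589-72136202), of which 9 had a GATA word, with a strongest peak of 428.8 in an intron.

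The Msmb cluster (chr14:32132083-32169053) covers 37.0 kb with Msmb, a secreted protein gene, and Ncoa4, the receptor that sends ferritin for degradation. Of its 10 peaks 6 lay in Ncoa4, and peaks of 330.4 and 325.9 stood 22729 bp apart with a promoter peak of 122.8 at Ncoa4. The Tbxas1 cluster (chr6:38821959-38924315) was the second longest, with 20 peaks over 102.4 kb through Hipk2, a protein kinase gene, and Tbxas1, the thromboxane synthase of platelets. GATA words were in 17 of them. Signals of 439.6, 361.9, 271.9, 252.0 and 231.5 lay in its introns, 4 of them in the last part of the span, from 78760 to 102356 bp, whereas its 2 promoter peaks had 11.6 and 35.0. The strongest peak held 18.6% of the summed signal.

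The 2 histone clusters were built differently from the others. The Hist1h4f cluster (chr13:23506505-23622572) had the most peaks, 31, and the longest span, 116.1 kb, and held the TSSs of 16 replication-dependent histone genes. The Hist1h4b cluster (chr13:23738830-23764611) held 20 peaks and 8 such genes in 25.8 kb. Of their 51 peaks, 38 were promoter peaks and only 11 had a GATA word. The strongest, both without one and shown above, were 204.4 at 69 bp from the TSS of Hist1h4f and 158.7 at 51 bp from that of Hist1h4b. Other histone H4 promoters followed, with 193.3 at Hist1h4d, 158.4 at Hist1h4h and 135.0 at Hist1h4a. Among the distal peaks the highest was 141.5, in an intron, with a GATA word. The strongest peak of the Hist1h4f cluster took 11.3% of its signal, the lowest share of the 37. CCAAT, a word of many promoters, was within 100 bp of 23 of the 51 summits (45.1%), against 22.9% of the other members, which are mostly distal. Among the 38 promoter peaks alone it was near 18, beside 25.3% of all promoter peaks. Histone genes of a class are near copies, so their values are uncertain in the same way as those of the globin genes. The Hist1h4b cluster ended 12616 bp before the next summit, which is just past the joining distance.

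Another cluster of that chromosome, Btn1a1 (chr13:23423757-23459456), lies 31992 bp from the next summit and held 10 peaks. It had the lowest median, 17.7, and the lowest summed signal, 376.7, of the 37, and 1 intronic peak of 200.9 at its last position held 53.3% of that sum. Btn1a1 encodes a milk fat protein, and the only coding TSS inside is that of Abt1, a nuclear protein of basal transcription.

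In 9 clusters every peak lay within the named gene, among them Nt5c3 and St3gal5. Rreb1, a zinc finger protein gene (chr13:37855197-37886231), and Usp7, the gene of a deubiquitinase (chr16:8736927-8769260), had 10 intronic peaks each and no promoter peak. Their strongest signals were 223.9 and 143.6, and the latter ranked 3130 in replicate 1, the lowest place of any strongest peak there. Spata5, an ATPase gene (chr3:37546585-37576990), had a strongest intronic peak of 346.8, followed by 220.0 at 5930 bp. Fhdc1, of the formin family (chr3:84454170-84479522), had GATA words in 10 of 11 peaks, with its strongest peaks of 318.9 and 285.2 at 15511 bp from each other.

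Aff1, a subunit of the super elongation complex (chr5:103737449-103775154), had 13 peaks, and the 2 strongest, 322.1 and 306.8, were 4218 bp apart, so that 72.7% of its signal lay within 5 kb of the strongest summit. Sppl3, an intramembrane protease gene (chr5:115054048-115076755), had the lowest strongest signal, 125.7, followed closely by 113.3 and 112.6. Cyth3, an exchange factor gene for ARF proteins (chr5:143624133-143666243), was the only cluster outside the histone genes whose strongest peak, 303.3, had no GATA word. This peak lay within Cyth3, 3100 bp from a TSS, in an exon outside coding sequence. Dapp1, an adaptor of immune signalling (chr3:137940933-137991368), held 12 of its 13 peaks, with GATA words in 10 and a strongest signal of 247.7.

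Other clusters began or ended beside a gene. Tmcc2, of a membrane protein (chr1:132355631-132400754), had its strongest peak, 496.3, at 103 bp from a TSS, the highest of the 5 clusters led by a promoter. The Btg2 cluster, at an antiproliferative gene (chr1:134059915-134110674), had 336.7 at 5800 bp from the TSS, 44.4 at 25 bp from it and 120.2 at the promoter of Chit1, beyond its far end. Cpeb4, a translational regulator of erythroid cells (chr11:31861333-31897102), had the most uneven cluster, though it met no cluster of 10 in any of the 5 alternative lists: its first peak, 477.2 at 10878 bp upstream, held 56.1% of the signal, and the promoter peak had 15.5. Rnf43, a ubiquitin ligase of Wnt receptors (chr11:87726384-87760963), likewise began with its strongest peak, 400.1. That cluster goes on past the promoter of Supt4a, with 47.5, to the host gene of Mir142, a microRNA of blood cells, with 79.3 at its promoter and 141.4 at 5292 bp from it, and ends at Tspoap1.

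The Hectd4 cluster, at a gene of a ubiquitin ligase (chr5:121194439-121250304), had 391.6, 312.5 and 303.3 as its 3 strongest peaks, with most of its signal, and 27.7 at the promoter of the ribosomal protein gene Rpl6.

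In 9 clusters, the histone clusters and Klf3 among them, no peak lay in the named gene. The cluster called Nr2e1 (chr10:42502251-42539144) had 8 of its 11 peaks in Snx3, which recycles the transferrin receptor, and its strongest peaks, 295.1 just past the end of that gene and 225.2 in its last part, lay 3455 bp apart, while the promoter of Snx3 had 17.3. Picalm, a clathrin assembly factor gene, lies 67177 bp from the strongest peak of a cluster of 20 (chr7:90041702-90080550). This peak, 518.8, ranked 4 and 16 in the libraries, the next had 393.1 at 2529 bp from it, and 15 of the 20 had a GATA word. No coding TSS was inside.

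Pik3cg, a kinase gene of blood cells, gave its name to 12 peaks (chr12:32104652-32144699) at the lncRNA gene 5430401H09Rik, whose promoter peak of 332.5 stood between distal peaks of 430.7 and 363.7 at sites 38714 bp apart. The Arhgap19 cluster (chr19:41802119-41857632) contains Frat1 and Frat2, genes of GSK3-binding proteins, with GATA words in 10 of 12 peaks and level strongest signals of 187.5, 170.8 and 163.4.

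Signal was unevenly divided within the clusters. The strongest peaks ranged from 125.7 to 570.3 with a median of 331.6, and 34 of 37 were above 169.9, the value that 10% of all peaks exceed. The strongest peak held a median of 28.3% of the summed signal of its cluster (11.3 to 56.1%), and the first 3 a median of 64.1% (30.7 to 84.5%). By rank within the cluster, median signal went from 331.6 for the strongest to 220.0, 138.5, 100.2 and 73.0 for the following 4, and to 10.2 for the weakest. The median over all 505 members, 40.4 (quartiles 20.4 and 107.9), was nevertheless close to the 38.5 of all peaks. More of them were above 169.9, 81 or 16.0%, against 10% of all peaks, 6.34% of single ones, 11.1% in clusters of 2 to 4 and 14.4% in clusters of 5 to 9, a value inside the members' interval of 13.1 to 19.5. Strongest peaks ranked 1 to 3130 (median 245.0) in replicate 1 and 1 to 2427 (median 369.0) in replicate 2. Both libraries enter the list from which these peaks were chosen, so the ranks are not separate support.

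The strongest peak was mostly an inner peak, as most members were, and mostly over 5 kb from the second. It was the first or last of its cluster in 3 (Cpeb4, Rnf43 and Btn1a1), and the 74 peaks at an edge had a median of 38.1, against 42.2 for the 431 inner ones. The distance between the strongest and the second had a median of 13337 bp and was at most 5 kb in 9 clusters. A median of 41.2% of the signal lay within 5 kb of the strongest summit. Neighbouring summits were a median of 2122 bp apart, from 199 to 12374 bp over 468 gaps, and 129 gaps (27.6%) were under 1 kb. In clusters of 2 to 9 peaks the median gap was 2631 bp.

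**Figure D3:**
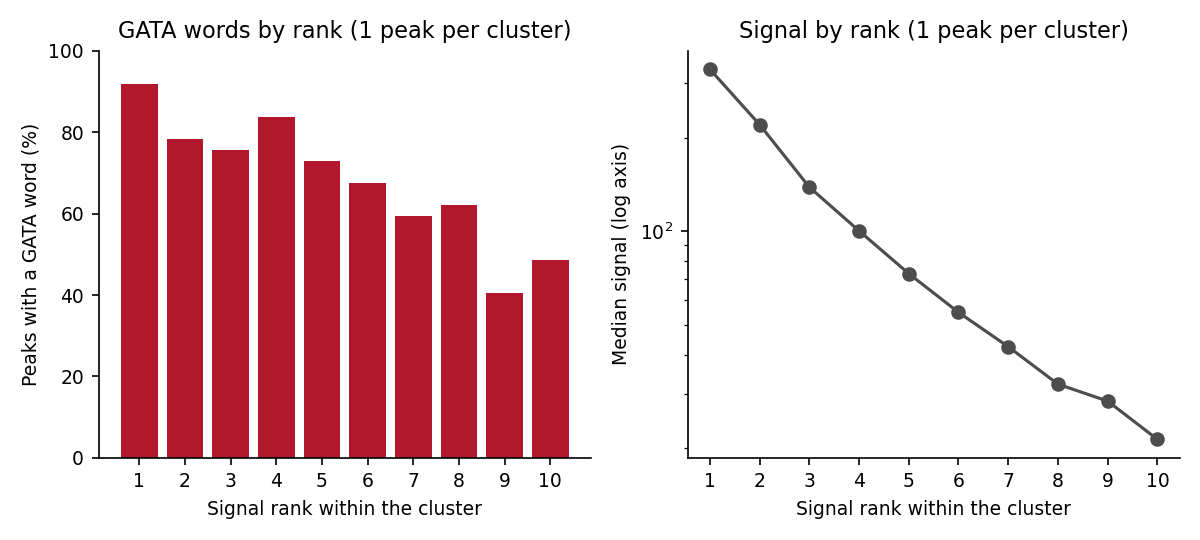
Share of peaks with a GATA word (left, bars from 0) and median signal (right, log axis) by signal rank within the cluster, over 37 peaks at each rank. The share falls from 91.9% at the strongest peak to 48.6% at rank 10 while the median signal falls from 331.6 to 21.4. Over all peaks the share also falls with signal, from 94.7% above 169.9 to 55.2% at 5.2 to 22.8.

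Promoters were as common among members as elsewhere, and were the strongest site in 5 clusters. Promoter peaks made up 133 of 505, or 26.3% (95% Wilson interval 22.7 to 30.3, counting error only, as for the other intervals given here), against 26.2% of all peaks. Without the histone clusters they were 95 of 454, or 20.9%. The strongest peak was distal in 32 clusters, in an intron in 18, in intergenic sequence in 13 and in an exon outside coding sequence in 1. It was a promoter peak in 5, among them Tmcc2, Slc4a1 and the histone clusters. Of all peaks above 169.9, where 34 of the strongest peaks lie, 281 of 1705 were at promoters, a similar share. In 15 clusters the strongest peak lay over 10 kb from any coding TSS. Distal members as a whole were nearer to one than the list, with a median of 9157 bp against 13036 bp for all distal peaks. Of the 34 clusters with both kinds, the median signal of promoter peaks was above that of distal peaks in 11. No promoter peak was in 3 clusters, Rreb1 and Usp7 among them, and 28 had one at a coding gene. Over all members the median was 34.5 at promoters and 44.7 at distal sites, much as over all peaks, with 31.5 and 42.2. Relative to the named gene, 213 peaks lay inside it, 169 upstream and 123 downstream.

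GATA words were scarcer in the clusters than in the list as a whole. They were near 312 of 505 member summits, or 61.8% (57.5 to 65.9), against 74.7% of all peaks and 77.1% of single peaks. At least 2 were near 32.1% of members, against 41.9% of all. Composites were near 92, or 18.2% (15.1 to 21.8), against 27.7% of all peaks. The step was steepest at the largest size, since GATA words were near 74.5% of peaks in clusters of 2 to 4 and 72.2% in clusters of 5 to 9. Leaving out the histone clusters brought the share to 301 of 454, or 66.3%. Distal members had one in 262 of 372 (70.4%), against 86.3% of all distal peaks, and promoter members in 50 of 133 (37.6%), against 42.1%. The histone clusters gave 38 of these promoter members, mostly without a GATA word. The lower promoter share therefore cannot be read for the promoters of the other clusters. Other words differed less: CACCC boxes (CCNCNCCC) were near 22.8% of members and 27.2% of all peaks, and CCAAT near 25.1% and 21.6%.

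**Figure D4:**
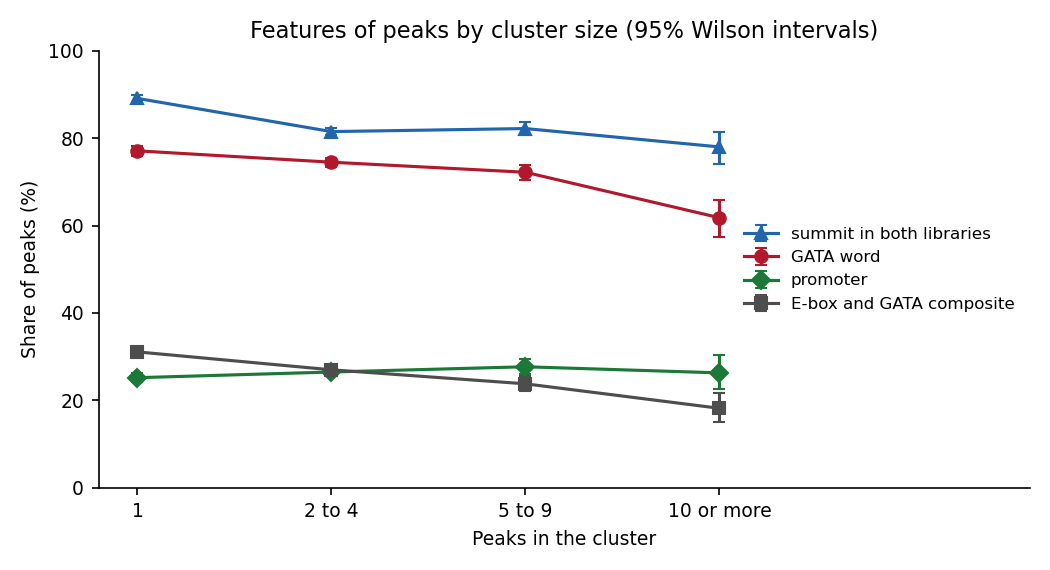
Share of peaks (%) that are promoters, hold a GATA word or a composite, or have a summit in both libraries, by the number of peaks in the cluster, with 95% Wilson intervals. The GATA share goes from 77.1% of single peaks to 61.8% in clusters of 10 or more, while the promoter share stays near 26%.

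The shortage differed with signal and between distal and promoter peaks. A GATA word was near 34 of the 37 strongest peaks, 27 of which had 2 or more and 21 a composite, near 29 of the second strongest and near 15 of the weakest. Over all peaks the share also rose with signal, from 55.2% at 5.2 to 22.8 to 94.7% above 169.9. The counts of 2 or more words and of composites were not set against peaks of like signal. Set against other peaks of like signal, distal members with a signal of 5.2 to 22.8, the lowest of 5 bands, had a GATA word in 46 of 98, or 46.9% (37.4 to 56.7), against 70.8% of other distal peaks. From 22.8 to 38.5 it was 44 of 76, or 57.9% (46.7 to 68.4), against 86.1%, and from 38.5 to 80.5 it was 49 of 65, or 75.4% (63.7 to 84.2), against 91.9%. From 80.5 to 169.9 the shares were 93.8% (85.0 to 97.5) and 94.7%, and above 169.9 they were 91.3% (82.3 to 96.0) and 96.5%. The intervals thus stay below the other peaks in the 3 lower bands, and reach 94.7% in the fourth, and that of the highest band ends just below 96.5%. Promoter members differed little in the 2 lowest bands, with 11 of 44 (14.6 to 39.4%) against 26.5% and 39.3% (23.6 to 57.6) against 35.3%. In the 3 higher bands they had 36.4% (22.2 to 53.4) against 49.0%, 43.8% (23.1 to 66.8) against 66.7% and 9 of 12 (46.8 to 91.1%) against 87.0%, over at most 33 members each. Each of these 3 intervals includes the value of the other peaks. Histone promoters, mostly without a GATA word, are among the members of each band, so no shortage can be read for the other promoters. Taking distal and promoter members together, 200 of the 259 with a signal above the median of all peaks had a GATA word, or 77.2% (71.7 to 81.9), against 86.6% of other peaks that strong, and above 169.9 it was 88.9% (80.2 to 94.0), against 1542 of 1624. Of the 259, 16 lay in the Hist1h4f cluster and 9 in the Hist1h4b cluster, mostly without a GATA word. These joint shares were not computed without them, so they cannot be read for the other loci. Without peaks near a stronger summit, the share of distal members in the lowest band was 44.8% (33.5 to 56.6), against 75.2%.

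**Figure D5:**
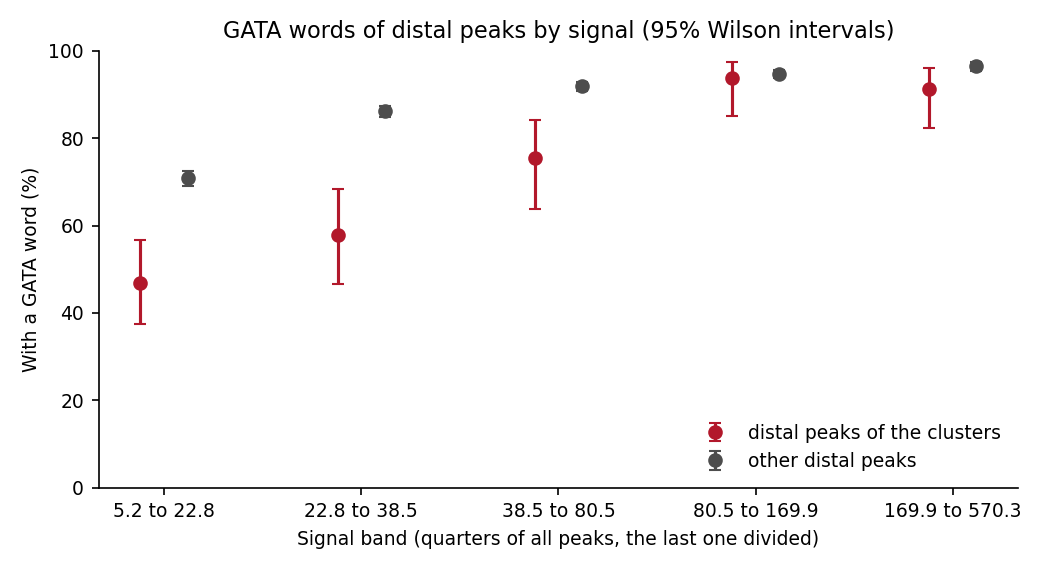
Share of distal peaks with a GATA word (%) in 5 bands of signal, for the 37 clusters (red) and all other distal peaks (grey), with 95% Wilson intervals. The red points lie lower in the 3 weaker bands, at 46.9, 57.9 and 75.4%, and nearly meet the grey ones at 93.8% in the fourth.

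Within the clusters, signal rose with the number of GATA words. Median signal was 26.1 without one, 37.4 with 1, 103.1 with 2 and 138.6 with 3 or more, against 25.2, 39.5, 50.6 and 56.7 over all peaks. Members with 2 or more words thus stood higher than the list as a whole. Peaks in clusters of 5 to 9 did so too, by less, with 67.9 at 2 words and 75.3 at 3 or more. The same order held within most loci: in 33 of the 36 clusters with both kinds, peaks with a GATA word had the higher median, and Btn1a1 and Hist1h4b were among the exceptions. The spread of each class was wide, with quartiles of 50.6 and 221.7 at 2 words. Peaks without a word were also closer to their neighbours, with the nearest summit under 1 kb away for 57.0% of them, against 35.3% of those with one.

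Part of the members had weak or closely paired summits. Summits of both libraries lay within 100 bp of 394 members, or 78.0% (74.2 to 81.4), against 84.3% of all peaks and 89.1% of single peaks. The conservative list also held 394 members (78.0%), against 78.4% of all. The median signal of members seen in both libraries was 61.2, and that of the others 15.7. A stronger optimal summit lay within 500 bp of 50 members, or 9.9% (7.59 to 12.8), against 6.28% of all peaks. Single peaks cannot have one by the joining rule, and the share was 10.5% in clusters of 5 to 9 and 9.62% in clusters of 2 to 4, so it does not set the largest clusters apart. The 50 had a median signal of 10.5, a GATA word in 46.0% and a summit in both libraries in 34.0%, while the other 455 had 47.6, 63.5% and 82.9%. With all such summits removed before joining, 27 clusters with 368 peaks remained, and 64.1% of their peaks (59.1 to 68.9) had a GATA word, against 77.0% of all peaks left. Inside the same spans, the pooled list had 630 further summits that are not optimal, with a median signal of 8.0 and at most 36.2.

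Spans held the TSSs of 69 of 21728 protein-coding genes (0.318%), of which 24 were histone genes. No coding TSS lay in 5 clusters, 1 in 20, 2 in 7 and 3 or more in 5. Of 9 globin genes 6 were inside, and of 67 replication-dependent histone genes 24. Of 20 erythroid transcription factors there were 2, Zfpm1 and Gfi1b, and of 26 genes of the red cell membrane and its receptors 2, Slc4a1 and Aqp1. Of 20 heme and iron genes, a list without Ncoa4, of 15 genes of mitophagy and reticulocyte maturation and of 24 genes of the cell cycle 0 were inside, which at a background of 0.318% says nothing about those lists.

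Lists of other cells of the liver were too short to be read against that background. Of 16 megakaryocyte and platelet genes 1 was inside, Tbxas1 (6.25%, beside 7.69% of the red cell membrane list), and of 30 hepatocyte genes and of 16 each for macrophages, endothelial cells, stellate cells and granulocytes none was. By the defining markers, 3 of 8 erythroid ones (Hbb-bs, Hba-a1 and Slc4a1) were inside and none of the 5 hepatocyte markers, which include Alb and Afp, the genes of albumin and alpha-fetoprotein. These counts concern TSSs inside spans alone, and a marker outside may still have peaks nearby.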

How the data were processed

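EP300 ChIP-seq was analysed from the authors' deposited narrowPeak lists on mm10: 1 per library, a pooled list, and an optimal and a conservative list of reproducible peaks. Per the file listings, each library's list came from its alignments and a control, and the pooled list from both. Which aligner, peak caller and threshold were used is not given in the sources used here. The signal, deposited by the authors in column 7, is the caller's value for a peak, on a scale of its own in each list. Of the optimal peaks, 12 on unplaced contigs were left out.

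Summits were joined at 12.5 kb and set on the GRCm38 sequence from RefSeq and the GENCODE vM21 annotation. A library had a peak where its list held a summit within 100 bp. Coordinates count from 1. Words were searched within 100 bp of summits on both strands. Shares carry 95% Wilson intervals for counting error alone; peaks of a cluster are not independent. The joining was tested on simulated positions. Python 3.11.15, pandas 2.3.3, numpy 2.4.6, scipy 1.17.1 and matplotlib 3.10.9 were used.

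The members and gene lists were chosen with earlier results of these data known. All 37 clusters enter the counts, and 33 are described; the other 4 are not reported here by name. Each is named by the coding gene nearest to its strongest summit; other genes named have a TSS inside or, as neighbours and examples, were chosen after their values were seen. Sequences are those of the 5 strongest clusters and the 3 richest in promoters, and 2 added. Alternatives were other lists, 1 library alone, other joining distances, promoter and motif windows, and clusters without histone genes, the last chosen after seeing the data.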

Additional observations from a re-analysis of the deposited data

How the results depend on the processing

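The number of clusters followed the joining distance and the peaks entered: 5 with 74 peaks at 5 kb, 115 with 1480 at 25 kb, and 2 with 24 peaks from those above the median signal, with 3, 97 and 2 of the strongest peaks distal. With 1 library alone there were 44 to 46 clusters with 545 to 591 peaks, a promoter share of 29.5 to 29.9%, a GATA share of 58.5 to 62.1% (all peaks 72.1 to 73.0%) and 32 to 35 distal strongest peaks. The promoter share was 31.2% in the conservative list, 20.8% above the median signal, 37.8% at 5 kb, 18% within 500 bp of a TSS (all peaks 20.5%), 43% within 2.5 kb (38.0%), 20.8% with coding TSSs (23.0%) and 20.9% without the histone clusters. The GATA share was 87.5% above the median signal (all peaks 86.3%, over 24 members), 50% at 5 kb, 69.7% at 25 kb, 52.7% within 50 bp (66.4%), 37.2% for AGATAA alone (48.3%) and 66.3% without the histone clusters; the cause of these moves was not tested. The member share was thus below that of all peaks except in the 24 peaks rejoined above the median signal (interval 69.0 to 95.7), too few to be read as a difference. Of 51 alternatives of the main values, 29 stayed within the interval or 1.5 times the reported value. Of the 37 clusters, 25 met a cluster of the conservative list, 27 and 24 one of the lists without replicate 1 and without replicate 2, 27 one after removing close summits, and 17 met one in all 5 lists tried. No paired analysis was possible because the 2 libraries form 1 group. Read depth is unknown, so weak peaks cannot be judged by counts.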
